A study of Takifugu alboplumbeus with 24 samples.

Results

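The transcription factor genes foxd1, lef1, zic2, nr2f1, gata3, mafb, osr1 and olig2 were described in the brain of the grass puffer, Takifugu alboplumbeus. They are 8 of the 24935 rows of the deposited expression table and were taken by their gene symbols. None of them has a homeodomain. The list was put together with results of these libraries already known, and which values decided it is not recorded, so the levels and tide differences of the 8 genes are given as descriptions with no p-value. Counts of them past a threshold describe the fit and are not tests of the 8.

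Wild male grass puffers had been caught weekly over 2 months of 2020 at their spawning site in Minamichita, Japan, and brought alive to the laboratory. The tissue, made up of the pituitary, the hypothalamus and the ventral telencephalon, was taken at about 19:00, and poly-A RNA was sequenced. There were 8 sampling dates with 3 libraries each, 24 in all. New moon in May, full moon in June, new moon in June and full moon in July are the 4 spring tide dates, when the tidal range is large and this species spawns. Waxing moon in May, waning moon in June, waxing moon in June and waning moon in July are the 4 neap tide dates. The first 4 dates make up the first lunar cycle and the last 4 the second. The labels give neither the age of the fish nor the number that went into each library.

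Regional transcription factors switch on in different parts of the embryonic neural tube and give each part its identity. Many stay active in the adult brain, each in a limited set of neurons, glia or vessel-associated cells, and so their level in a block of tissue depends both on which cells the block holds and on how active the gene is. In a bulk sample fewer cells of a type and less RNA per cell cannot be told apart. Several of the 8 genes are tied to signals known from forebrain patterning: the product of lef1 turns Wnt signals into transcription, zic2 acts at the forebrain midline, and nr2f1 codes for an orphan nuclear receptor.

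Levels are FPKM, fragments scaled for transcript length and library size, as deposited by the authors. Markers of the labelled tissue were present: the hypothalamic gene nkx2-1 averaged 9.96 FPKM, the telencephalic gene dlx2 9.27 FPKM and the pituitary luteinising hormone gene lhb (LOC101078229) 4027 FPKM. Of 10 hindbrain genes listed 8 lay under 0.1 FPKM. Other regions were not all absent, and of 12 thalamic and habenular genes 7 averaged at least 1 FPKM. The retina, pineal and tectum list had a median sum of 5.35 FPKM at spring and 5.38 at neap tide but reached 300.6 and 139.8. The hypothalamic sum ran from 80.84 to 2672 FPKM over the libraries. Library 2 of waxing moon May stood apart in its pituitary genes, with a summed FPKM of 499 over the pituitary hormone genes against 12470 to 65890 in the other libraries. Results are therefore also given without it where it decides a value. The sum of all FPKM in a library, in units of 1000, ranged from 461 to 552 at spring tide (median 507) and from 435 to 519 at neap tide (median 452).

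All 8 genes were lower at spring than at neap tide, by 1.27-fold for gata3 to 2.99-fold for osr1 on the log2(FPKM + 1) scale. On the 3 neap dates after May every gene had a date mean above each of its 4 spring date means. Waxing moon in May was the exception, since only 5 of the 8 genes did so there. For 7 of the 8 genes full moon in July was the lowest of the 8 dates, and for zic2 it was new moon in June. The share of all genes with either of these date patterns is not given, so neither is read as particular to the 8. In the fit over all 17058 genes with a mean of at least 1 FPKM (limma, adjusted p below 0.05) all 8 lay past the threshold in the lower direction, against 4.31% of all genes, or 736, in that direction and 5.63% in either. For 5 of the 8 each spring date mean lay below each neap date mean, which held for 4.57% of all genes. As the list was chosen knowing such results, nothing is read from these counts. The number past the threshold was 0 when new moon in May, waning moon in June, full moon in July or waning moon in July was left out, 2 without waxing moon in June and 3 without new moon in June. Calls among all 17058 genes fell in these fits too, to 3, 64, 13, 19, 64 and 118 in the same order.

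**Figure D1:**
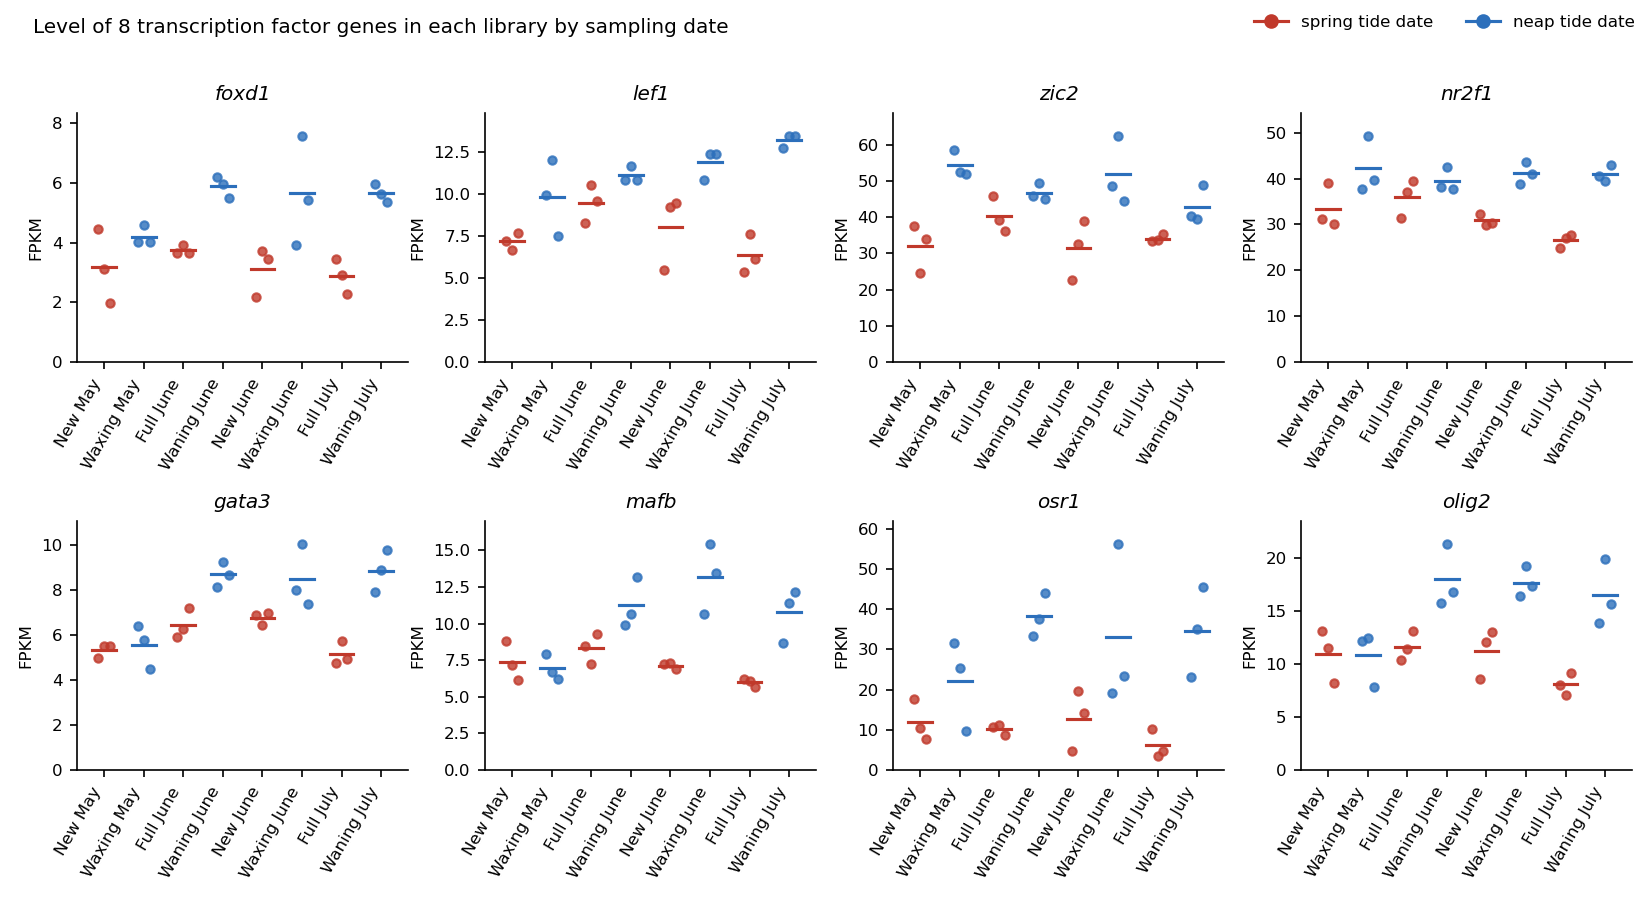
Level (FPKM, vertical axis, linear from 0) of each of the 8 genes in every library, by sampling date in calendar order. Points are libraries (3 per date), bars are date means, red marks spring tide and blue neap tide dates. For osr1 the 4 spring date means lie between 6.09 and 12.7 FPKM and the 4 neap date means between 22.2 and 38.3 FPKM.

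The gene osr1 codes for a zinc finger protein of the odd-skipped family that is known from the mouse for its part in kidney and heart formation and in connective tissue. It had the widest tide difference of the 8. At spring tide it was at 3.43 FPKM in the lowest of the 12 libraries, 10.4 at the median and 19.5 in the highest. At neap tide the lowest was 9.62, the median 32.4 and the highest 56.3 FPKM. The tides overlapped in a few libraries, and 10 of the 12 neap libraries lay above every spring library. The date means did not overlap: neap dates averaged 32.0 ± 6.92 FPKM and spring dates 10.2 ± 2.96 (SD over dates, n = 4 dates each). On the log2(FPKM + 1) scale, the spring minus neap difference was -1.58 (SE 0.33). By date, osr1 ran from 38.3 ± 5.45 FPKM at waning moon in June down to 6.09 ± 3.66 at full moon in July (SD, n = 3 libraries). Libraries of a date were far apart, with 19.2, 56.3 and 23.5 FPKM at waxing moon in June, and no pair of neighbours in the order of dates was free of overlap between libraries. Its spread within dates, an SD of 0.65 on the log2 scale, exceeded that of the other 7 genes, which lay between 0.13 for nr2f1 and 0.25 for foxd1.

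The forkhead factor gene foxd1 is needed, in the mouse, for the ventral diencephalon and for the crossing of optic axons. It was the least abundant of the 8. The spring libraries ran from 1.98 through a median of 3.45 to 4.44 FPKM. The neap libraries ran from 3.92 through a median of 5.47 to 7.58 FPKM. Overlap was slight: 9 of the 12 neap libraries lay above every spring library, and 11 of the 12 spring libraries below every neap library. Date means were 5.35 ± 0.77 FPKM at neap and 3.23 ± 0.36 at spring (SD, n = 4 dates) with no overlap, a log2 difference of -0.59 (SE 0.14). In the order of dates, waning moon in June, waning moon in July and waxing moon in June stood together at 5.65 to 5.89 FPKM. The step from waxing moon in May (4.20 ± 0.33) to full moon in June (3.74 ± 0.15), on the boundary between the tides, was the single one at which neighbouring dates did not overlap.

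The product of zic2, a zinc finger protein, acts in the forebrain midline and in the retina. With a mean of 41.7 FPKM over all libraries zic2 was the most abundant of the 8 genes. The lowest, median and highest spring libraries had 22.7, 34.6 and 45.8 FPKM. The corresponding neap libraries had 39.6, 48.7 and 62.5 FPKM. Here 11 of the 12 spring libraries lay below all neap libraries, and the exception was the highest of full moon in June. Date means averaged 49.0 ± 5.12 FPKM at neap and 34.5 ± 4.12 at spring tide (SD, n = 4 dates), and the log2 difference was -0.50 (SE 0.11). Unlike most of the others zic2 was highest at waxing moon in May, with 54.3 ± 3.68 FPKM, and the lowest of its neap dates was waning moon in July with 42.9 ± 5.12 (SD, n = 3). Among spring dates full moon in June (40.4 ± 4.96) did not overlap with the next, full moon in July (34.1 ± 1.08). The change per week at equal tide was -0.02 on the log2 scale (SE 0.03).

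The orphan receptor gene nr2f1, or COUP-TF I, patterns areas of the mouse cortex. Its spread within dates, an SD of 0.13 on the log2 scale, was the smallest of the 8. Its spring libraries lay at 25.0 (lowest), 30.8 (median) and 39.5 FPKM (highest). Its neap libraries lay at 37.7, 40.1 and 49.4 FPKM. Of the 12 spring libraries 10 were below every neap library. The 4 neap dates were nearly level, at 39.5 to 42.3 FPKM, while the spring dates ranged from 26.6 ± 1.40 at full moon in July to 36.0 ± 4.13 at full moon in June (SD, n = 3). The tide means were 41.0 ± 1.12 FPKM at neap and 31.7 ± 4.04 at spring (SD, n = 4 dates), which is a log2 difference of -0.37 (SE 0.08). Full moon in July did not overlap with its neighbour in the order, new moon in June (30.9 ± 1.27).

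The gene lef1 codes for the DNA-binding partner of beta-catenin and is needed in zebrafish for neurons of the hypothalamus. The spring libraries had 5.37 (lowest), 7.64 (median) and 10.5 FPKM (highest). The neap libraries had 7.50, 11.8 and 13.5 FPKM. In 10 of the 12 neap libraries lef1 was above every spring library, and the 2 that were not came from waxing moon in May. Date means averaged 11.5 ± 1.42 FPKM at neap and 7.75 ± 1.32 at spring (SD, n = 4 dates), a log2 difference of -0.53 (SE 0.12). Waning moon in July, at 13.2 ± 0.40 FPKM, stood clear of the next date, waxing moon in June at 11.9 ± 0.88 (SD, n = 3).

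The remaining genes, gata3, mafb and olig2, are factors of particular neuron, glia or immune lineages, and their date means overlapped between the tides. In each case the overlap came from waxing moon in May. The zinc finger factor gene gata3, which in the mouse takes part in the making of inhibitory neurons of the midbrain and brainstem, had 4.75, 5.81 and 7.17 FPKM in the lowest, median and highest spring library. At neap tide these were 4.50, 8.07 and 10.1 FPKM. Waxing moon in May averaged 5.56 ± 0.96 FPKM, between full moon in June (6.44 ± 0.66) and new moon in May (5.32 ± 0.31), while the other 3 neap dates lay between 8.48 and 8.86 FPKM (SD, n = 3). The lower end of that trio, waxing moon in June, did not overlap with the highest spring date, new moon in June. Across the 4 dates of each tide gata3 averaged 7.89 ± 1.57 at neap and 5.91 ± 0.81 FPKM at spring (SD over dates), and the log2 difference was -0.35 (SE 0.10).

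The leucine zipper factor gene mafb is known in the mouse from hindbrain segments and from macrophages. Its spring libraries had 5.65 (lowest), 7.18 (median) and 9.32 FPKM (highest), and its neap libraries 6.24, 10.7 and 15.5 FPKM. Waxing moon in June was highest with 13.2 ± 2.40 FPKM, and waxing moon in May, with 6.96 ± 0.88, lay below 3 of the 4 spring dates (SD, n = 3). The tide means were 10.5 ± 2.60 FPKM at neap and 7.21 ± 0.97 at spring (SD, n = 4 dates), a log2 difference of -0.46 (SE 0.13). Without waxing moon in May, left out after its values were seen, the difference was -0.67, and without waxing moon in June it was -0.26.

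The bHLH factor gene olig2 marks oligodendrocyte precursors and, in the embryo, motor neuron progenitors. It had 7.09, 10.9 and 13.1 FPKM in the lowest, median and highest of the spring libraries. The neap libraries had 7.82, 16.1 and 21.4 FPKM. Waning moon in June, waxing moon in June and waning moon in July stood together at 16.5 to 17.97 FPKM, and none of their libraries overlapped with those of the next date, full moon in June (11.6 ± 1.40). Waxing moon in May, at 10.8 ± 2.61, was level with the spring dates (SD, n = 3). Tide means were 15.7 ± 3.34 FPKM at neap and 10.5 ± 1.62 at spring (SD, n = 4 dates), a log2 difference of -0.53 (SE 0.15).

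Leaving out the pituitary-poor library of waxing moon May moved none of these differences by more than a few hundredths: osr1 was at -1.56, foxd1 at -0.59, zic2 at -0.51, nr2f1 at -0.34, lef1 at -0.50, gata3 at -0.36, mafb at -0.49 and olig2 at -0.53. With the FPKM sum of the library as a covariate the differences of foxd1, zic2 and osr1 were -0.57, -0.63 and -1.53, and that of lef1 was -0.41. Those of gata3, mafb, nr2f1 and olig2 came down to -0.09, -0.13, -0.22 and -0.22. In this fit 0 of the 8 genes passed the threshold, and 5 of all 17058 did. The part of the FPKM sum in the result was not otherwise tested.

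In each lunar cycle all 8 genes were lower at spring tide, and for all 8 the difference was wider in the second cycle, as it was by sign alone for 33.7% of all genes tested. For mafb it was -0.16 in the first cycle and -0.76 in the second (SE 0.17 each). For olig2 it went from -0.28 to -0.78 (SE 0.22 each) and for lef1 from -0.30 to -0.75 (SE 0.17 each). For zic2 the cycles were alike, at -0.49 and -0.52 (SE 0.17 each). Across the genome a difference between cycles passed the threshold for 0 genes (limma, 0% of 17058, with 607 at an unadjusted p below 0.05). Of the 736 genes that were lower at spring tide 688, or 93.5%, likewise had the more negative difference in the second cycle, so the shared direction of the 8 is near that background. A straight change per week at equal tide also passed for 0 genes (limma, 0%, with 1446 at an unadjusted p below 0.05), and for the 8 genes it lay between -0.03 for nr2f1 and 0.04 for gata3 on the log2 scale. Differences among the 8 dates in either direction, judged by the spread within dates alone, passed for all 8 genes and for 41.3% of all genes tested.

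**Figure D2:**
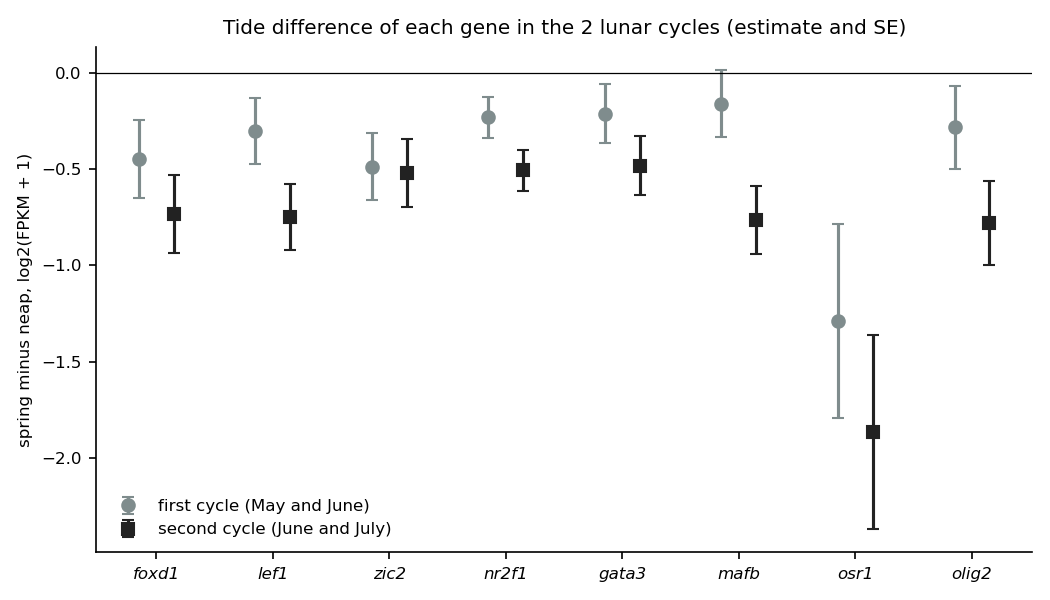
Spring minus neap difference (vertical axis, log2(FPKM + 1), estimate with SE) of the 8 genes in the first lunar cycle (grey circles, 6 spring and 6 neap libraries in May and June) and in the second (black squares, June and July). All 16 estimates are below 0, and for mafb the estimate is -0.16 in the first and -0.76 in the second cycle.

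The 8 genes varied together over the libraries. Pearson's r of log2(FPKM + 1) over the 24 libraries was positive for each of the 28 pairs, from 0.39 for zic2 with gata3 to 0.88 for foxd1 with osr1, with a median of 0.72. These points share their tide and date. After each library was taken as its deviation from its date mean the median over pairs was 0.39, and the range was from -0.35 for zic2 with nr2f1 to 0.70 for foxd1 with osr1. Within dates osr1 also went with olig2 (0.67) and zic2 (0.60). In contrast nr2f1 showed little such relation to osr1 (-0.02) or mafb (0.04).

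**Figure D3:**
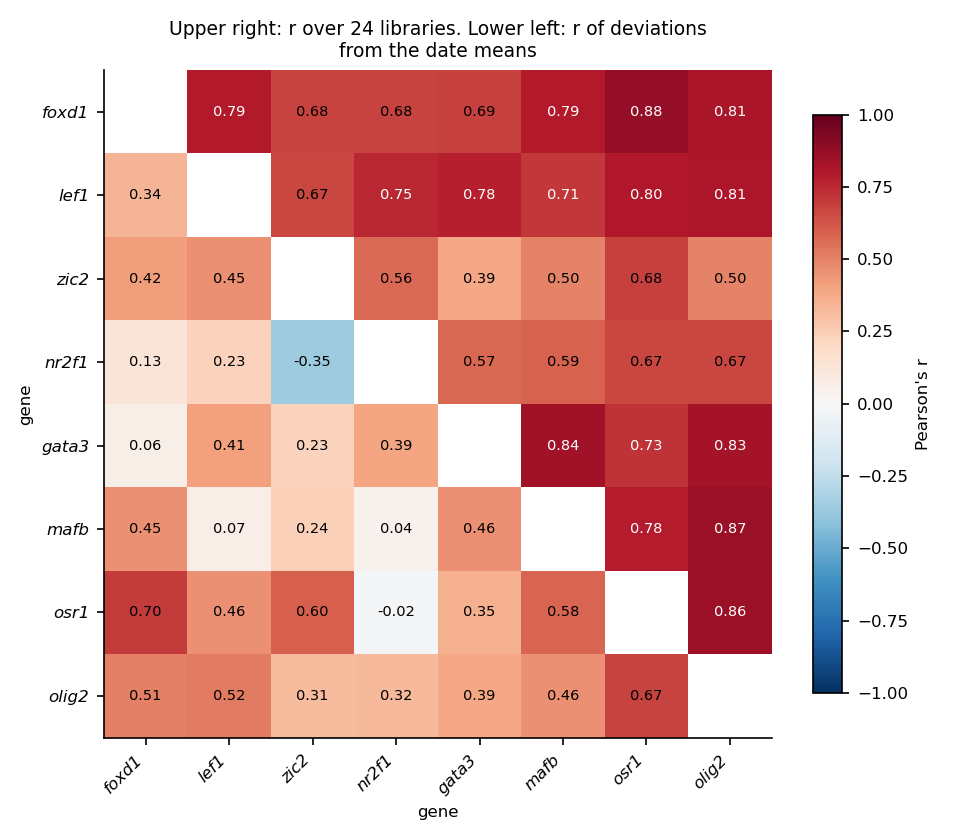
Pearson's r between the 8 genes, on log2(FPKM + 1), as a coloured matrix with the value in each cell. The upper right triangle is over the 24 libraries (0.39 to 0.88) and the lower left triangle over the deviations of the libraries from their date means (-0.35 to 0.70).

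Among 8620 other tested genes with a symbol, those whose level ran most closely with each of the 8 over the 24 libraries were picked by r alone. For foxd1 the closest was itga6, which codes for the integrin alpha 6 subunit (r = 0.88 over libraries, 0.78 over deviations from date means). Libraries share their tide and date, so r over deviations is given second throughout. For osr1 it was zfp36l1, whose product promotes mRNA decay (0.90 and 0.81), and zfp36l1 was also the third closest to foxd1 (0.87 and 0.61). For mafb and for olig2 alike it was fam181b (0.92 and 0.68 for mafb, 0.91 and 0.63 for olig2). For gata3 it was cntnap1, a gene for an axonal protein of the myelinated fibre (0.92 and 0.53), followed by the homeobox gene gsx1 (0.90 and 0.73). For lef1 it was bambi, which codes for a decoy receptor of BMP signals (0.88 and 0.78), and the neuronal factor gene pou3f4 (0.88 and 0.66). For zic2 it was the Notch-related bHLH gene hes4 (0.81 and 0.52), and for nr2f1 the cell adhesion gene flrt3 (0.84 and 0.79).

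Relatives of the 8 by protein family, and the Wnt pathway in which lef1 acts, were then tested in the same fit. The lists follow family membership of the 8 genes, which were themselves chosen with tide results known. Of 152 symbols listed 138 were matched to 197 rows, and 126 rows averaged 1 FPKM or more. Of those 126 genes 94 (74.6%) had lower and 32 higher levels at spring tide, against 58.5% lower among all genes tested. Their median log2 difference was -0.12 against -0.04 over all genes. At spring tide 14 were lower and 2 higher past the threshold (limma, adjusted p below 0.05), against 4.31% and 1.32% of all genes tested. No related gene passed when new moon in May, full moon in July or waning moon in July was left out, when the 8 date means were taken as the samples, or with the FPKM sum as a covariate. In those fits between 1 and 19 of all 17058 genes passed. Without waxing moon in May 51 related genes passed, along with 5631 of all 17058 genes.

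Among the forkhead genes, 11 of 14 tested had lower levels at spring tide (58.5% of all genes tested did), and 3 fell past the threshold (4.31% of all genes tested did). The gene foxc1 (LOC101072421), a factor of meninges and vessel-associated cells, had 5.88, 9.88 and 13.2 FPKM in the lowest, median and highest spring library. At neap tide it had 14.9, 16.9 and 19.9 FPKM. No library of one tide overlapped with the other, and foxc1 fell at spring tide by 0.76 on the log2 scale (SE 0.13, limma, adjusted p = 0.00807). The close relative of foxd1, foxd2 (LOC101065699), was at 8.72 ± 1.11 FPKM at neap and 6.06 ± 1.49 at spring tide (SD, n = 4 dates) and fell by 0.48 (SE 0.12, adjusted p = 0.0290 by limma). The gene foxf2 (LOC101066738), known in the mouse from brain pericytes, was at 5.12 ± 0.72 and 3.34 ± 0.54 FPKM and fell by 0.50 (SE 0.12, adjusted p = 0.0242 by limma). The date means of foxc1, foxd2 and foxf2 did not overlap between the tides. Each spring date mean lay below each neap date mean for 4.57% of all genes tested. The 3 passed the threshold on the same values, so nothing more is read from this. How many of all genes had no overlap between libraries, as foxc1 had, is not given. A further locus named foxd1-like averaged 0.02 FPKM and was not tested.

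The closest relatives of the other genes did not pass. Of 5 TCF and LEF genes 4 were lower at spring tide and none passed; tcf7l2, the abundant Wnt effector of the thalamus (mean 77.2 FPKM), differed by -0.25 (SE 0.14, limma, adjusted p = 0.244) and tcf7 by -0.16 (SE 0.13, adjusted p = 0.445). None of 10 ZIC and GLI genes passed. The gene zic1 differed by -0.09 (SE 0.13, limma, adjusted p = 0.689). All 8 COUP-TF and tailless genes tested were lower at spring tide as deposited, but 7 of 8 under median-ratio scaling or quantile normalization and 6 of 8 with the FPKM sum as a covariate. None passed in these fits, and 3 fell under TPM scaling, as did 2858 of all 17058 genes. For nr2f2 (LOC101065069, mean 70.8 FPKM) the difference was -0.25 (SE 0.10, limma, adjusted p = 0.134). Of 10 GATA relatives and partners none passed, and gata2 differed by -0.24 (SE 0.10, limma, adjusted p = 0.143) while both gata2-like loci had positive differences, 0.40 and 0.16. For osr2 the difference was -0.28 (SE 0.13, limma, adjusted p = 0.167). Of 15 OLIG and proneural bHLH genes none passed, and olig1 differed by -0.47 (SE 0.19, limma, adjusted p = 0.114). Missing the threshold does not show that these relatives were level between the tides. In the MAF family the small partner mafk, which has no activation domain, rose at spring tide: it was at 4.28 ± 0.63 FPKM at neap and 9.75 ± 3.09 at spring (SD, n = 4 dates), a log2 difference of 1.04 (SE 0.20, limma, adjusted p = 0.0142). It was the single one of 6 tested MAF relatives past the threshold, which 5.63% of all genes tested passed in either direction.

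Of the Wnt pathway list 57 genes were tested, and 11 fell and 1 rose past the threshold, against 4.31% and 1.32% of all genes tested. At spring tide 45 of the 57 (79%) were lower, against 58.5% of all genes tested. The median log2 difference was -0.12. Genes at several levels of the pathway were among those that fell. At the receptors, the co-receptor gene lrp6 was at 10.7 ± 1.84 FPKM at neap and 7.72 ± 1.04 at spring tide and fell by 0.42 (SE 0.10, limma, adjusted p = 0.0260). The Frizzled receptor genes fzd7 (LOC101078517) and fzd9 (LOC101064960) fell by 0.32 (SE 0.08, adjusted p = 0.0332 by limma) and 0.28 (SE 0.07, adjusted p = 0.0317). Inside the cell, dvl1, which relays the signal from the receptors, was at 18.7 ± 2.43 and 14.8 ± 2.37 FPKM and fell by 0.33 (SE 0.09, limma, adjusted p = 0.0332). The gene bcl9, whose product is a co-activator of beta-catenin, was at 12.3 ± 1.51 and 9.56 ± 0.70 FPKM and fell by 0.33 (SE 0.08, limma, adjusted p = 0.0233). The widest difference among those that fell was that of nkd2, an inhibitor that binds Dishevelled. Its neap libraries had 18.2, 22.5 and 29.9 FPKM at the lowest, median and highest, and its spring libraries 10.9, 15.1 and 19.6 FPKM. Overlap between the tides was slight, and nkd2 fell by 0.61 (SE 0.12, limma, adjusted p = 0.0142). The one gene that rose, a dkk3-like locus (LOC101075674) of the secreted Dickkopf family, is named because it was alone: it was at 59.2 ± 5.75 FPKM at neap and 105 ± 27.7 at spring, a log2 difference of 0.82 (SE 0.23, limma, adjusted p = 0.0411; SD over 4 dates throughout). The others that fell, listed to complete the count, were wnt7b, fzd5, fzd8, axin2 and nkd1, at differences of -0.32 to -0.43. Beta-catenin itself, ctnnb1, differed by -0.14 (SE 0.05, limma, adjusted p = 0.0969). Under median-ratio scaling 6 of the Wnt genes fell, under quantile normalization 7 fell, and under TPM scaling 21 fell. Of all 17058 genes 323, 436 and 2858 fell in these fits, in the same order, against 736 in the main fit. The dkk3-like locus did not pass under quantile normalization and lost its call in 23 alternatives in all. The genes axin2 and fzd8 lost theirs in 30 each, and the gene that fell by 0.43 lost its call in 31. With the FPKM sum or the mean log2 level of the pituitary hormone genes as a covariate 0 Wnt genes passed. Of all 17058 genes 5 and 24 passed in these fits.

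**Figure D4:**
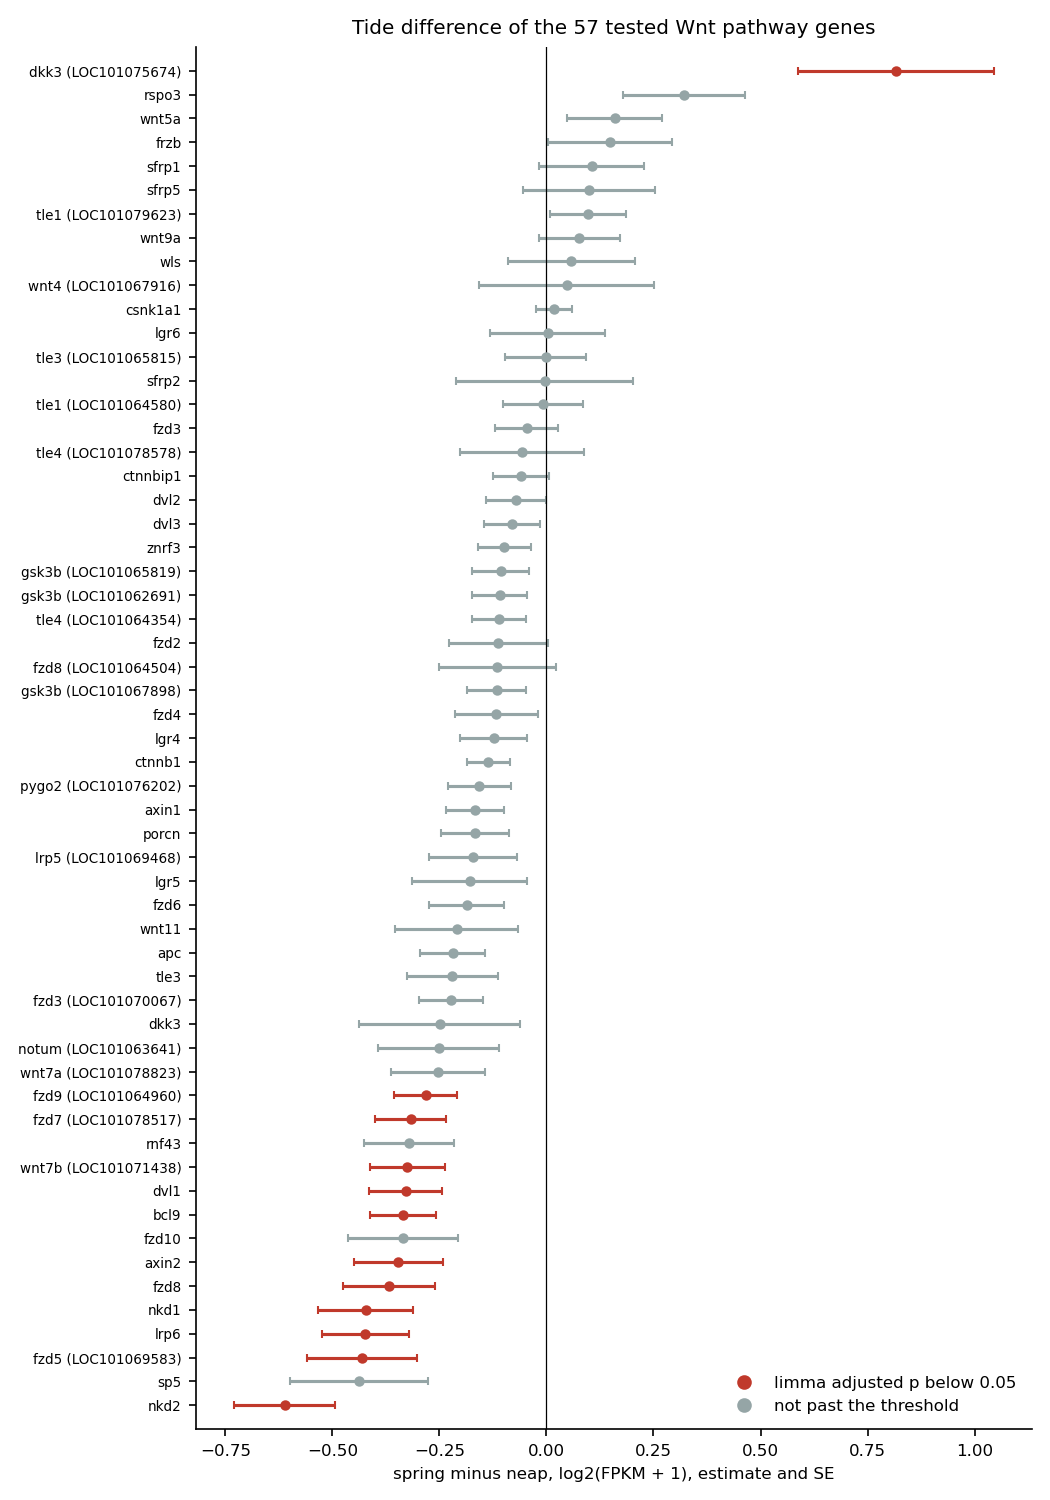
Spring minus neap difference (horizontal axis, log2(FPKM + 1), estimate with SE) of the 57 tested Wnt pathway genes, sorted. Red points are past the threshold (limma adjusted p below 0.05): 11 with a negative difference, down to -0.61 for nkd2, and 1 with a positive one, dkk3 at 0.82.

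Marker genes of the cell types the piece could hold were set beside the 8 genes. For counts of direction, 58.5% of all genes tested were lower at spring tide. For counts past the threshold, 4.31% of all genes tested fell at spring tide and 1.32% rose. For olig2, the oligodendrocyte lineage is the one to compare: 0 of its 14 tested genes passed (limma, adjusted p below 0.05), and the median difference was 0.01. The summed level overlapped, at 1528 to 2462 FPKM at spring and 1354 to 2600 FPKM at neap tide. The 2600 is the pituitary-poor library 2 of waxing moon May, and the next neap library had 2256. On the neap dates after May, where olig2 was highest, the sum was 1354 to 1920 FPKM. The median sum was 1978 FPKM at spring and 1638 at neap tide. Under TPM scaling 3 of the 14 genes fell and the median difference was -0.12, while 2858 of all 17058 genes fell. For mafb, 0 of 14 microglia and macrophage genes passed, with 10 lower at spring tide, and the summed level was 347.8 to 562.4 FPKM at spring and 434.7 to 600.8 at neap. With the FPKM sum as a covariate all 14 were lower (median -0.21) and 0 passed, and under TPM scaling 11 were lower and 1 fell past the threshold. Of these markers tyrobp lay near 0 (mean 0.06 FPKM), and the others included spi1 at 10.7, ptprc at 8.05 and cd74 at 322 FPKM. The sum is thus mostly cd74 and says little about the other markers. For osr1 and foxd1, which connective tissue cells can express, 1 of 17 meningeal and fibroblast genes passed, and that one was foxc1. Of 11 pericyte and smooth muscle genes 2 fell, pdgfrb by 0.43 (SE 0.09, limma, adjusted p = 0.0175) and rgs5 (LOC101075850) by 0.42 (SE 0.10, adjusted p = 0.0275 by limma). The list as a whole was split, with 6 genes lower and 5 higher at spring tide (median -0.09). Its summed level overlapped, at 340.8 to 554.2 FPKM at spring (median 408.2) and 312.6 to 467.9 at neap tide (median 400.6). With the FPKM sum or the pituitary score as a covariate 0 of its genes passed, as against 5 and 24 of all 17058 genes.

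The summed level of the endothelial list was separate between the tides. Its summed level was 154.6 to 192.1 FPKM in the spring libraries and 194.7 to 239.7 in the neap libraries, with no overlap, and of its 15 tested genes 3 fell at spring tide (tie1, 1 of 2 cldn5 loci and 1 of 4 slco1c1 loci) and 1 rose (a pecam1-like locus). Under TPM scaling 7 endothelial genes fell and 0 rose. With the FPKM sum as a covariate 1 fell and 0 rose, and with the pituitary score 2 fell and 0 rose. Of all 17058 genes 2858, 5 and 17 fell in these fits, in the same order. The mean log2 level of that list ran with the 8 genes over the 24 libraries at r = 0.56 for zic2 to 0.89 for lef1. This was not particular to it. For gata3, mafb and olig2 r was 0.79, 0.75 and 0.80 with the endothelial list. With the thalamic and habenular list it was 0.79, 0.79 and 0.81, and for the other genes it was lower than with the endothelial list. The log2 FPKM sum ran with the 8 genes at -0.81 for gata3 to -0.28 for zic2. Over deviations from date means r with the endothelial list was 0.77 for lef1, 0.59 for foxd1 and 0.09 for nr2f1. Other lists ran more closely than the endothelial list with zic2, osr1 and olig2 within dates, and less closely but still positively with lef1 and foxd1. With the meningeal list r was 0.70 for zic2 (0.47 with the endothelial list) and 0.55 for osr1 (0.50 with the endothelial list). It was 0.71 for lef1 and 0.55 for foxd1, both below their endothelial values. With the microglial list r was 0.76 for zic2. With the oligodendrocyte list it was 0.54 for olig2 (0.49 with the endothelial list) and 0.65 for lef1, below its endothelial value. Pituitary hormone genes moved the other way: all 9 tested were higher at spring tide and 1, lhb, rose past the threshold, with a summed FPKM of 20140 to 65890 at spring and 499 to 33960 at neap tide. The 499 is library 2 of waxing moon May, and the other neap libraries began at 12470. Without that library 3 hormone genes rose and the median log2 difference of the list went from 1.38 to 0.97, and under quantile normalization 0 rose. Their mean log2 level ran with the 8 genes at r = -0.62 for nr2f1 to -0.20 for mafb. With that level as a covariate the tide differences of the 8 genes lay between -0.29 for nr2f1 and -1.62 for osr1, all still negative. Of 17 neuronal genes tested 15 were lower at spring tide and none passed (median -0.21), while under TPM scaling 2 fell. When the FPKM sum was a covariate only 3 were lower and the median turned to 0.07. As deposited, none of the astrocyte, ependymal or blood genes passed. The part of vessel cells and of the other cell types in the result was not tested.

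**Figure D5:**
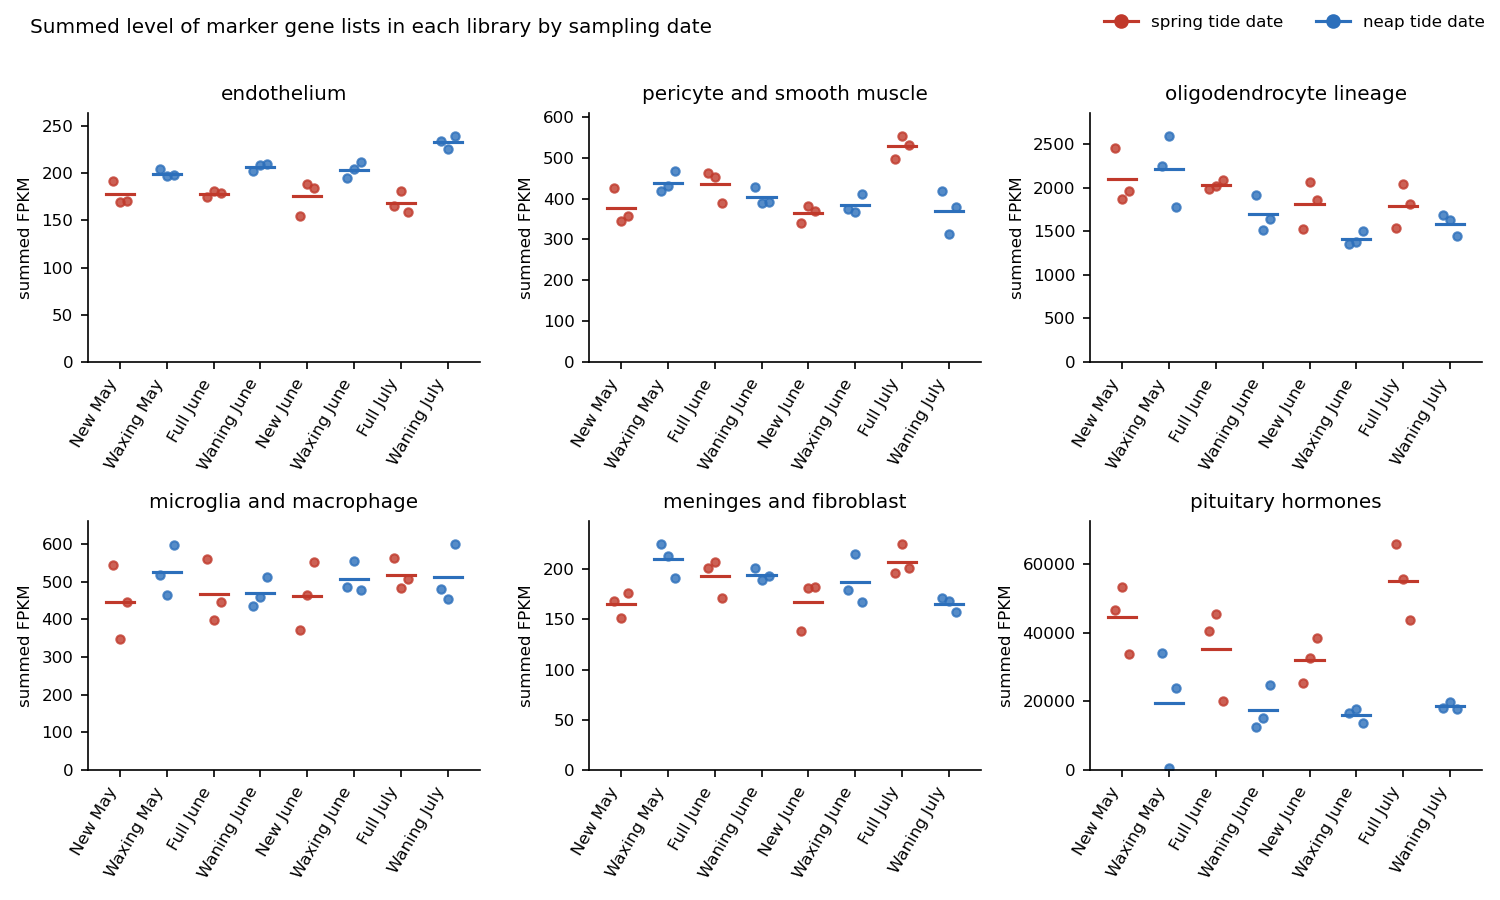
Summed FPKM (vertical axis, linear from 0) of 6 marker gene lists in every library by sampling date. Points are libraries (3 per date), bars are date means, red marks spring and blue neap tide dates. The endothelial sums do not overlap between the tides (154.6 to 192.1 against 194.7 to 239.7), and the oligodendrocyte sums do.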

How the data were processed

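The 24 libraries were compared from a table of FPKM values with 2 decimals that the authors deposited. Per the submitters' processing notes HISAT2 2.0.4 and RSEM 1.2.12 were used; no genome build is named in these sources, and read depth is unknown, so no counting interval or detection floor is given. Per the labels' protocols the poly-A libraries were strand-specific and read as pairs of 100 bases.

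The scale used was log2(FPKM + 1), on which changes of genes with low levels come out too small. Genes with a mean of at least 1 FPKM (17058) were fitted with limma 3.58.1 and statmod 1.5.0 in R 4.3.3: the 4 moon phases as groups, sampling date as a random block (within-date correlation 0.26), an intensity trend, and Benjamini-Hochberg adjustment over all genes at 0.05. The tide varies between dates only, so dates are its units, and nothing shows that the libraries of a date are separate fish. The fit nevertheless used all 24 libraries, with the same within-date correlation for every gene. Its adjusted p-values are therefore not tests over 8 date means. When the date means were taken as the samples, 1 of all 17058 genes passed. Further fits held tide and week, tide by lunar cycle, or the 8 dates with no block. Scripts were checked on simulated data. The 8 genes, the gene lists and the tests were chosen with earlier results of these data known. Loci with only a LOC symbol were matched by product name. Past the threshold at most 6 relatives a list were to be described, by smallest p, plus the closest relative. The other Wnt genes past it were named after their values were seen. For each of the 8 genes up to 3 genes of highest r were named. Alternatives changed the pseudocount, filter, scaling, covariates, block, libraries and dates. A few related genes are not reported here.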

Additional observations from a re-analysis of the deposited data

Results flagged for a closer look

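One value stood far from the others of its moon phase. The level of nr2f1 in library 2 of new moon May was 38.96 FPKM, against 32.33 FPKM in the next highest of the 6 new moon libraries, a gap of 0.733 of their whole range, which is above Dixon's 95% critical value for 6 values. In all 32 sets of 6 values (8 genes in 4 moon phases) were looked at this way, and chance gives such a gap in about 1 set in 20. Without that library nr2f1 kept a negative tide difference.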

How the results depend on the processing

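All 8 genes kept a negative tide difference under every alternative fitted. The full 8 passed with a pseudocount of 0.1, no filter or TPM scaling, and 5 passed with median-ratio scaling or quantile normalization, and also with a minimum of 5 FPKM, where foxd1 was not among the 7 tested. Of all 17058 genes 2974 passed with TPM scaling, 671 with median-ratio scaling and 705 with quantile normalization, against 961 in the main fit. With date means as samples, the FPKM sum as a covariate or the pituitary hormone score as a covariate 0 passed. Of all 17058 genes 1, 5 and 24 passed in these fits. Leaving out single libraries left 5 to 8: in 16 of 24 cases, which include each library of new moon May, waxing moon June and full moon July, 5 remained past the threshold, and olig2, mafb and gata3 were those lost in all 16. Of all 17058 genes 285 to 854 passed in those 16 fits, against 961 in the main fit. Where all 8 passed, 1015 to 1979 of all genes did. Dates were left out in turn after the data were seen: 0 of the 8 genes passed without new moon May, waning moon June, full moon July or waning moon July, 2 without waxing moon June and 3 without new moon June. The loss was not particular to the 8, since 3, 64, 13, 19, 64 and 118 of all 17058 genes passed in these fits.

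Of the related genes 16 passed. Their number was 9 with a minimum of 5 FPKM, 32 with TPM scaling, which shifts the median of all genes to -0.17, and 0, 0 and 2 with date means, the FPKM sum or the pituitary score. With a minimum of 5 FPKM 604 of all 11862 genes tested passed. Of all 17058 genes 2974, 1, 5 and 24 passed in the other fits, in the same order. Without new moon May, full moon July or waning moon July 0 passed, without waning moon June 2, waxing moon June 3, new moon June 4 and waxing moon May 51. Of all 17058 genes 3, 13, 19, 64, 64, 118 and 5631 passed in these fits, in the same order. Single libraries moved the number of related genes from 6 (without waning moon July library 2) to 26 (without waxing moon May library 1), with 7 without new moon May library 1 and 10 without full moon June library 1. Of all 17058 genes 285, 1979, 326 and 510 passed in these fits, in the same order. Among dates 51 related genes passed, 79 with TPM scaling, and 45 to 62 without single libraries. Of all 17058 genes 7040, 9756 and 5929 to 7643 passed in these fits. Week and cycle stayed at 0 throughout. The causes were not tested.

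With TPM scaling the differences of nr2f1 and gata3 were -0.51 and -0.50. Whether replicate numbers pair the libraries was not tested. Deviations of same-numbered libraries correlated at -0.30 to 0.24, with a median of 0.02 against -0.01 for libraries of other numbers. Of 24 libraries 13 were closest to their own number, which is above an even share among the 3 numbers. With the replicate number as a block 6 of the 8 genes (mafb and gata3 lost) and 15 related genes passed.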

Other observations

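Regional marker lists of the forebrain, set beside the 8 genes, did not move as one. Of 12 hypothalamic genes tested 9 (75%) were lower at spring tide, against 58.5% of all genes tested. Past the threshold 2 of the 12 fell, against 4.31% of all genes tested. The homeobox gene nkx2-1 was at 11.3 ± 1.99 FPKM at neap and 8.62 ± 0.94 at spring tide (SD, n = 4 dates) and fell by 0.35 (SE 0.10, limma, adjusted p = 0.0427), and an hmx3 locus (LOC101077246) fell by 0.47 (SE 0.13, limma, adjusted p = 0.0417). These calls depend on the scaling: 0 hypothalamic genes passed under median-ratio scaling, 1 under quantile normalization, 5 under TPM scaling, and 0 with the FPKM sum or the pituitary score as a covariate. Of all 17058 genes 671, 705, 2974, 5 and 24 passed in these fits, in the same order. Of 11 telencephalic genes none passed, with 5 lower and a median difference of 0.00 (-0.10 under TPM scaling), while all 7 tested thalamic and habenular genes were lower with a median of -0.31 and none passed. Under TPM scaling 3 of these 7 fell, as did 2858 of all 17058 genes. Under median-ratio scaling or quantile normalization 6 of the 7 were lower.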
